A study of Mus musculus with 6 samples.

Results

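The distal end of mouse chromosome 7 carries H19, an imprinted long non-coding RNA, in the middle of one of the best studied imprinted regions of the mouse genome. Array probes were taken as members when their coordinate (mm9 build) lay on chromosome 7 from 140 Mb to the chromosome end. Probes named H19, Igf2, Cdkn1c, Tnnt3, Tnni2, Ctsd or Irf7 were left out, as were those of the potassium channel (Kcn), mitochondrial ribosomal protein (Mrp), ribosomal protein (Rpl), proteasome (Psm), mitochondrial carrier (Slc25) and olfactory receptor (Olfr) families, so that 345 of the 392 probes remained, out of 55681 on the array. They carry 233 gene or transcript names and span chr7:140012061-152509944. The 7 H19 probes themselves lie at chr7:149761492-149762476, and from there 278 members lie towards the centromere, up to 9.75 Mb away, and 67 towards the telomere, up to 2.75 Mb away. The rule of position used no measured value, but the members were chosen with earlier results of these data known.

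The arrays held RNA of cardiomyocytes, the contractile cells of the heart, isolated by retrograde perfusion from adult mice 6 weeks after transverse aortic constriction (TAC), an operation that narrows the aorta and loads the left ventricle. One group of 3 arrays came from H19 knockout (KO) mice and the other 3 from wild-type (wt) littermates, and both groups had TAC. The labels do not give which bases the knockout removes, nor whether each array holds 1 animal or a pool, so p-values measure only the spread between these samples. In bulk RNA, fewer cells of a type and less RNA per cell cannot be told apart.

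In an imprinted region a gene is read mainly from the chromosome inherited from 1 parent. On distal chromosome 7, H19 is read from the maternal chromosome and its neighbour Igf2 from the paternal one. They share enhancers, and a control region upstream of H19 that is methylated on the paternal chromosome sets which of them the enhancers reach. A separate control region further towards the telomere governs a group of genes that includes Phlda2, Slc22a18, Tssc4, Cd81 and Ascl2, several of them imprinted mainly in the placenta. Around and between these lie genes with no known imprint, which can show whether a difference at H19 is accompanied by differences at its neighbours.

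Probe sequences are given for 6 non-coding members, those nearest to H19 on either side, those at the far centromeric edge of the region, and a pair on opposite strands. Each is 60 bases long and is written from 5′ to 3′ as it stands in the array files. Nctc1 (chr7:149739640-149739699, minus strand) is a non-coding transcript of the stretch that holds a muscle enhancer of the locus, and its probe lies 21.8 kb from those of H19. Igf2os (chr7:149856156-149856215, plus strand), the transcript opposite to Igf2, lies 93.7 kb to the other side. A pair of separate intergenic transcripts at the edge of the region, edge transcripts 1 and 2, have probes at chr7:140012061-140012120 and chr7:140013775-140013834 respectively, both on the minus strand. The strand pair comes from a long intergenic transcript locus 648.6 kb from H19, with a probe on the plus strand at chr7:149112817-149112876 and one on the minus strand at chr7:149112816-149112875. The pair reads the same stretch of DNA in opposite directions, shifted by 1 base.
Nctc1: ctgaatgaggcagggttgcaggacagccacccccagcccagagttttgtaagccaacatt
Igf2os: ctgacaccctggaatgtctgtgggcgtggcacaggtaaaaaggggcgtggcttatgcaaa
edge transcript 1: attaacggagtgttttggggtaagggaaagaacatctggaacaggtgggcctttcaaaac
edge transcript 2: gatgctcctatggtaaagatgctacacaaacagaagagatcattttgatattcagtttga
strand pair, plus strand: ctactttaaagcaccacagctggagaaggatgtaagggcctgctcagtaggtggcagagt
strand pair, minus strand: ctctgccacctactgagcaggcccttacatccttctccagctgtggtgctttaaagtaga

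Levels below are log2 intensities of a probe minus the 75th percentile of its array, so a level of 0 is the level that 25% of all probes exceed, and a difference is the mean of the knockout arrays minus the mean of the wild-type arrays. The share of spots well above background, of 59305 per array, ran from 48.8% to 58.6%, and no member was saturated. The brightest H19 probe read 1.69, 0.75 and 0.85 in the wild-type arrays and -5.67, -6.41 and -5.96 in the knockout arrays, below the detection limit on all 3. By this probe H19 was thus at least 32.4-fold lower in the knockout (limma, adjusted p = 0.00192). The other tested H19 probes were dimmer and gave lower bounds, from 2.74-fold to 5.85-fold. The probe with the bound of 2.74-fold did not pass (limma, adjusted p = 0.357), and not all 7 H19 probes could be tested. All 6 cardiomyocyte markers were measured in every array, with summed linear levels of 1687 to 1794 in the wild type and 1508 to 1677 in the knockout. The 6 fibroblast markers all had a positive difference, with sums of 113 to 219 against 170 to 380 and the highest value in knockout replicate 2. Summed macrophage and myeloid markers ran from 47.6 to 64.0 in the wild type and from 30.0 to 63.5 in the knockout. The 3 markers of atrial cardiomyocytes were lower in the knockout, with sums of 19.3 to 76.2 against 3.70 to 7.93. Of 4 lymphocyte markers, 2 were tested and both had a positive difference, with sums of 0.215 to 0.542 in the wild type and 0.358 to 2.08 in the knockout. No marker passed an adjusted p of 0.05 in limma, and the part of these cells in the values below was not tested.

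Of the 345 probes, 165 were well above background on all 6 arrays and 44 on 3 to 5 arrays. These 209 probes, for 158 names, entered the test, 60.6% of the members against 53.9% of all probes. Another 28 were detected on 1 or 2 arrays, and 108 on none. Among the 28, detection was in the wild type alone for 8, in the knockout alone for 12 and in both for 8. Among the 44 tested probes that were dim on some array, 30 were detected on more wild-type arrays, 8 on more knockout arrays and 6 on equally many. No tested probe was below background on all arrays of a genotype, so none of the tested members showed the loss that H19 did.

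The first question is whether any neighbour of H19 differs between the genotypes. None of the 209 tested probes passed an adjusted p of 0.05 in limma in either direction, where 14 of all 29990 probes, 0.0467%, did, with 3 higher (0.01%) and 11 lower (0.0367%). The smallest adjusted p among the members was 0.586. At an unadjusted p of 0.05, 12 members were lower and 0 higher. That is 5.74% lower against 7.16% of all probes, and 0% higher against 1.09%.

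Array by array the picture was the same. In 15 members (7.18%) all 3 knockout arrays lay below all 3 wild-type arrays, against 8.64% of all probes, and in 5 (2.39%) they lay above, against 2.13%. Differences were positive for 79 of 209 members (37.8%) and for 39.2% of all probes. Only 4 members were lower and 2 higher by more than 1 log2 unit, 1.91% and 0.957%, against 1.76% and 0.547% of all probes. The shares among the members were therefore close to those of the array as a whole, and the members are read as no more changed than it.

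The median difference was -0.10 over the members, -0.05 over all tested probes and -0.07 over the 1931 tested probes of chromosome 7 before 140 Mb. After each probe's mean was taken off, the median over the members was 0.08, 0.02 and 0.04 in the wild-type arrays and 0.00092, -0.08 and -0.06 in the knockout arrays. Over all probes the same medians were 0.04, 0.02 and 0.03 against 0.03, -0.12 and -0.06. Among the members the knockout arrays were all below the wild-type arrays, while over all probes knockout replicate 1 lay within the wild-type range. By slide, the median difference of the members was -0.11 on either slide (-0.105 and -0.111), and that of all probes -0.01 on the first and -0.12 on the second. Scaling to each array's median instead moved the median of all probes to 0.37 and that of the members to 0.33. Median scaling moves all probes of an array alike, so the members stayed 0.04 below all probes (-0.04) by construction. The direction of this gap was not stable. The members lay 0.0094 above all probes in the authors' deposited values, and 0.0017 above them without wild-type replicate 1. After quantile normalization both medians were -0.01, at -0.0065 for the members and -0.0080 for all probes.

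How large a difference could have been missed is shown by the confidence intervals. The 95% interval of limma lay within 1 log2 unit either side of 0 for 157 of the 209 members (75.1%), against 72.3% of all probes. Its median half-width was 0.49, and in 12 members it did not include 0. Among the 103 members whose mean level was above 0, 97 (94.2%) had an interval inside these limits, and among the 106 at or under 0 there were 60 (56.6%). On this scale and probe by probe, a change of 2-fold would have been outside the interval for most well-measured genes of the region. For many dim ones it would not. The intervals leave out the choice of scaling: median scaling moved all differences up alike, that of Cd81 from 0.07 to 0.49.

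The second question is whether differences depend on the distance from H19. Towards the centromere the median difference was -0.10 for the 57 tested probes more than 5 Mb away, -0.10 for the 38 at 2 to 5 Mb, -0.04 for the 52 at 1 to 2 Mb, -0.07 for the 8 at 0.5 to 1 Mb and -0.13 for the 18 within 0.5 Mb. Towards the telomere it was -0.26 for the 9 within 0.5 Mb, -0.01 for the 5 at 0.5 to 1 Mb, -0.06 for the 14 at 1 to 2 Mb and -0.14 for the 8 at 2 to 5 Mb. Every bin had a negative median on this scale and a mixture of signs, but under median scaling all 9 bin medians were positive, from 0.16 to 0.41, and after quantile normalization 4 were positive and 5 negative, from -0.12 to 0.13. The lowest median, that of the 9 telomeric probes nearest to H19, became -0.14 when 1 probe stood for each gene, since 3 of the 9 belong to Tspan32, and was then no longer the lowest, being above the -0.21 at 0.5 to 1 Mb and the -0.15 within 0.5 Mb on the centromeric side. Across the 209 probes the correlation of distance and difference was -0.02 (Pearson) and 0.04 (Spearman), and that of distance and the size of the difference was 0.0023 (Spearman). These describe neighbouring probes on the same 6 arrays, which are not independent of each other.

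In windows of 1 Mb along the chromosome the medians ran from -0.35 (141 to 142 Mb, 5 tested probes) to 0.05 (140 to 141 Mb, 24 tested probes), leaving aside the window from 145 Mb, which had 1 tested probe at 0.63. The window from 143 Mb had 6 probes and none that could be tested. The window that holds H19, 149 to 150 Mb, had 26 tested probes and a median of -0.13, next to -0.04 for the 49 probes of the window before it and -0.01 for the 17 after it. The window at the telomeric end, from 152 Mb, had 5 tested probes, all with a negative difference and a median of -0.26.

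Within 1 Mb of H19 there were 68 probes for 54 names, of which 40 probes for 34 names could be tested. Their differences were negative for 26 and positive for 14, with a median of -0.10, and none passed the test (limma, smallest adjusted p = 0.586). For 29 of the 40 (72.5%) the 95% interval stayed within 1 log2 unit. The 16 of them with a mean level above 0 differed by -0.20 to 0.60. Of the 40, 0 were higher in all 3 knockout arrays than in any wild-type array, where 2.13% of all probes were. Lower in all 3 were 3 of the 40, where 8.64% of all probes were. These were 2 probes of Tspan32 and 1 on the strand opposite to Dusp8.

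Closest to H19 was Nctc1, whose probe is printed above. It read -0.40, -1.18 and -1.45 in the wild-type arrays and -1.46, -1.47 and -1.36 in the knockout arrays. The knockout arrays were nearly equal, and only wild-type replicate 1 stood clearly above them. The difference was -0.42 ± 0.27 (SE; limma, adjusted p = 0.745), and it was -1.06 on the first slide, which held replicate 1 of either genotype, and -0.10 on the second, which held the other 4 arrays. On the other side, Igf2os read -1.79, -2.09 and -2.80 against -2.46, -2.54 and -2.77. Its genotypes overlapped, again with wild-type replicate 1 highest, and the difference was -0.36 ± 0.27 (limma, adjusted p = 0.812).

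Ins2, one of the mouse insulin genes and imprinted in the yolk sac, lies 102.1 kb from H19 on the Igf2 side. Its level was -2.64, -2.65 and -3.02 in the wild type and -3.68, -2.98 and -3.48 in the knockout, near the limit of detection, with 2 of 3 knockout arrays well above background. Knockout replicate 2 lay just above wild-type replicate 3, so the groups overlapped. The difference was -0.61 ± 0.23 and did not pass (limma, adjusted p = 0.586). Th, the first enzyme of catecholamine synthesis, followed at 316.2 kb with a difference of -0.14 ± 0.17. Ascl2, a transcription factor of the placental trophoblast, was detected on 1 array of each genotype and was not tested.

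On the centromeric side the member nearest to H19 after Nctc1 is listed as ENSMUST00000100003, which the files describe as mitochondrial ribosomal protein L23. It stays in because it carries a transcript name and not the family's. At 34.8 kb from H19 it read 6.67, 6.55 and 6.88 in the wild type and 6.86, 6.41 and 6.60 in the knockout. The groups overlapped fully, with a difference of -0.08 ± 0.18 and a 95% interval from -0.51 to 0.35.

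Lsp1, an actin-binding protein of leukocytes, lies 81.0 kb from H19. It read 2.55, 2.01 and 2.20 in the wild type and 2.48, 3.43 and 2.65 in the knockout. Knockout replicate 2 was far above the rest, and that array also had the highest fibroblast markers. Among the lymphocyte markers, Lck, a kinase of T lymphocytes, read -2.68, -3.95 and -4.36 in the wild type and -2.83, -0.80 and 0.73 in the knockout. Lck was thus highest in knockout replicate 3, where Lsp1 was highest in knockout replicate 2. The other tested lymphocyte marker, Cd3e, differed by 0.30 ± 0.37 with arrays that overlapped. Of the 6 macrophage and myeloid markers, 0 had a positive difference, and their median was -0.57. The difference of Lsp1, 0.60 ± 0.28, was the largest positive one within 1 Mb and did not pass (limma, adjusted p = 0.617). Whether the other cells in these arrays bear on Lsp1 was not tested. The next gene, Prr33, differed by -0.02 ± 0.28.

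Syt8, a member of the synaptotagmin family of membrane traffic proteins, lies 135.6 kb away. Its levels were -1.55, -1.97 and -2.69 in the wild type and -2.64, -2.77 and -2.97 in the knockout. Knockout replicate 1 lay within the wild-type range, and the difference of -0.72 ± 0.29 did not pass (limma, adjusted p = 0.604). Ifitm10, a relative of the interferon-induced transmembrane proteins, had a difference of 0.44 ± 0.70 that came from 1 array: it read -1.65, -2.16 and -2.70 in the wild type and -2.77, -2.39 and -0.03 in the knockout.

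Between 0.27 and 0.40 Mb from H19 lies a cluster of Krtap5 genes, which encode keratin-associated proteins of hair. Krtap5-2 differed by -0.32 ± 0.19, Krtap5-3 by -0.18 ± 0.17 and Krtap5-1 by 0.20 ± 0.24, and no array of Krtap5-4 was above background. Krtap5-5 had tested probes of opposite sign, at -0.11 ± 0.19 and 0.46 ± 0.30. The genes of such a cluster are near copies of each other, so a probe may read more than 1 of them.

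Dusp8, a phosphatase that acts on stress-activated MAP kinases, lies 493.9 kb from H19 at a place where both strands are probed. Its own probe on the minus strand read 1.59, 2.20 and 1.94 in the wild type and 2.32, 2.11 and 2.26 in the knockout. The lowest value was wild-type replicate 1 and the highest knockout replicate 1, and the ranges overlapped, with a difference of 0.32 ± 0.19 (limma, adjusted p = 0.717). A neighbouring minus-strand probe, ENSMUST00000051217, differed by 0.38 ± 0.22. On the opposite strand the probe named 5530400B01Rik read -1.48, -1.83 and -1.96 in the wild type and -2.41, -2.15 and -2.20 in the knockout. Here every knockout array lay below every wild-type array, with a difference of -0.50 ± 0.18 (limma, adjusted p = 0.586). Opposite strands thus had differences of opposite sign, and none of the 3 passed.

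Farther out on the centromeric side the genes with strong signal differed little. Mob2, an activator of NDR kinases, differed by 0.04 ± 0.15. Tollip, an adaptor of Toll-like receptor signalling, had 3 probes at 0.01 ± 0.16, -0.10 ± 0.15 and -0.04 ± 0.14, and Ap2a2, a subunit of the clathrin adaptor, differed by 0.02 ± 0.15. Their 95% intervals lay within 0.46 log2 units of 0. The mucin genes between them were dim: Muc2 and Muc6 were detected on no array, Muc5b on 1 knockout array and Muc5ac on 2 wild-type arrays and 1 knockout array, with a difference of -0.42 ± 0.30. Brsk2, a kinase of neurons, was detected on no array.

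The strand pair whose sequences are given above showed signal on 1 strand only. The plus-strand probe was well above background on 3 wild-type arrays and 2 knockout arrays and the minus-strand probe on none. The plus-strand probe read -1.80, -3.02 and -3.60 against -3.79, -3.18 and -3.45. Wild-type replicate 1 again stood apart, and the difference was -0.67 ± 0.44 over all arrays, -1.99 on the first slide and -0.0018 on the second.

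On the telomeric side lies the group of genes under the second control region. Cd81, a tetraspanin, read 7.54, 7.25 and 7.54 in the wild type and 7.61, 7.48 and 7.46 in the knockout. Its difference was 0.07 ± 0.16, with a 95% interval from -0.30 to 0.44. Tssc4 differed by 0.04 ± 0.16, Slc22a18, an organic cation transporter, by -0.01 ± 0.33, Nap1l4, a histone chaperone, by 0.02 ± 0.17, and Cars, the cysteinyl-tRNA synthetase, by 0.04 ± 0.14. Phlda2 and Trpm5, a placental growth regulator and the cation channel of taste cells, were detected on no array.

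Tspan32, another tetraspanin, was the gene of this group with the most regular difference. Its probe at 441.1 kb read -3.20, -3.33 and -3.39 in the wild type and -3.96, -3.77 and -3.87 in the knockout, where only 1 array was above background. The probe at 428.5 kb read -1.06, -0.87 and -0.83 against -1.26, -1.17 and -1.12. In both probes all knockout arrays lay below all wild-type arrays. The differences were -0.56 ± 0.15 (limma, adjusted p = 0.586) and -0.26 ± 0.15 (limma, adjusted p = 0.685). The remaining probe, with a difference of -0.54 ± 0.34, overlapped, since knockout replicate 2 was highest at -0.89. After scaling to the array median the differences of the first 2 probes were -0.14 and 0.16.

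A list of 20 imprinted genes of the region outside the left out names had 18 on the array and 13 tested. The list need not be complete, and imprinting itself was not measured here. It had 6 positive and 7 negative differences, a median of -0.01 and none past the test, beside -0.05 over all probes. Past 1 Mb it included Osbpl5, a sterol transfer protein, at 0.15 ± 0.21, Dhcr7, the last enzyme of cholesterol synthesis, at -0.01 ± 0.22, and Tnfrsf23, a decoy receptor of the TNF family, at 0.14 ± 0.14. A list of 8 genes that flank H19 on the centromeric side had 7 tested, with 5 positive and 2 negative differences and a median of 0.04. That list leaves out Nctc1, the Krtap5 cluster and the mucins, among others. All 18 tested probes within 0.5 Mb on that side had 6 positive and 12 negative differences and a median of -0.13. The 8 at 0.5 to 1 Mb had 3 positive and 5 negative and a median of -0.07.

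Outside the immediate surroundings, the members with arrays that did not overlap between the genotypes are described here array by array, with none of them past the test. Clrn3, a clarin membrane protein, had the smallest p of the region (limma, adjusted p = 0.586). It lies 7.06 Mb from H19 and read -2.10, -2.51 and -3.06 in the wild type and -3.87, -3.73 and -3.56 in the knockout. The lowest wild-type array lay well above the highest knockout array, and the difference was -1.16 ± 0.26.

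Edge transcript 1, 9.75 Mb from H19, read -2.0, -2.56 and -3.27 in the wild type and -4.29, -3.42 and -4.19 in the knockout, a difference of -1.35 ± 0.37 (limma, adjusted p = 0.586). It was above background on 3 wild-type arrays and 1 knockout array. Another probe for edge transcript 1, whose sequence is not printed, differed by -0.11 ± 0.17 with overlapping arrays, so the difference rests on 1 probe. Edge transcript 2 read -2.66, -3.29 and -3.78 against -4.09, -3.58 and -4.26, a difference of -0.73 ± 0.32 with arrays that overlapped. Cfap46, a protein of motile cilia, read -1.56, -1.84 and -2.62 against -2.91, -2.88 and -2.74, a difference of -0.83 ± 0.28. Its other tested probe differed by -0.37 ± 0.43 with overlapping arrays.

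Shank2, a scaffold of excitatory synapses, had a difference of -0.68 ± 0.29, and knockout replicate 3 at -2.44 was barely below wild-type replicate 3 at -2.42. The other tested probe of Shank2 differed by -0.85 with overlapping arrays. Nlrp6, a sensor of innate immunity in the gut, differed by -0.52 ± 0.17 at levels of -2.89 to -3.26 in the wild type and -3.53 to -3.74 in the knockout. Rassf7, a Ras association domain protein, differed by -0.47 ± 0.21. Lrrc56, a protein of cilia, had 2 probes that share 52 of their 60 positions and so are 1 measurement. They differed by -0.42 ± 0.16 and -0.43 ± 0.17, and the first read 0.38, 0.36 and 0.41 in the wild type against 0.0017, -0.24 and 0.14 in the knockout. The other 4 probes lower in every knockout array were the predicted transcript Gm4593 at -0.35 ± 0.18, ENSMUST00000105895 at -0.46 ± 0.20, and 2 intergenic transcripts 5.19 Mb from H19 at -0.44 ± 0.23 and -0.12 ± 0.14. Of these intergenic transcripts, the first had 4 tested probes that ran from -0.44 to 0.19. The other tested probe of the second differed by -0.17 with overlapping arrays. Fank1, a gene best known from the testis, differed by -0.70 ± 0.27 and was among the smallest p of the region, but its arrays overlapped (limma, adjusted p = 0.603).

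Fewer members lay the other way. Cttn, the actin-binding protein cortactin, had both of its probes higher in every knockout array. One read 4.78, 5.01 and 4.95 in the wild type and 5.14, 5.12 and 5.04 in the knockout, a difference of 0.19 ± 0.15 (limma, adjusted p = 0.825). The other read -1.19, -0.77 and -0.91 against -0.62, -0.44 and -0.68, a difference of 0.37 ± 0.17 (limma, adjusted p = 0.615). Rnh1, the ribonuclease inhibitor, differed by 0.20 ± 0.17, with knockout replicate 3 and wild-type replicate 3 both at 2.16. Tnfrsf23 differed by 0.14 ± 0.14 and Deaf1, a transcription factor, by 0.13 ± 0.14.

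Scgb1c1, a secretoglobin, and the weaker probe of Uros were positive too, at 0.45 ± 0.34 and 0.30 ± 0.21, with arrays that overlapped. Deaf1 had 2 more tested probes, at -0.03 ± 0.17 and 0.01 ± 0.17, both overlapping. Whether the arrays overlapped depended on the scaling for most of these probes. Under normexp background correction, quantile normalization, median scaling and the authors' deposited values, only edge transcript 1, Clrn3, Cfap46 and 1 Cttn probe stayed apart in all 4, while Nlrp6 and Shank2 stayed apart in none.

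Some large differences of the region were not among these, because their arrays overlapped. LOC100036523, a predicted transcript 965.5 kb from H19, read -1.25, -3.89 and -3.68 in the wild type and -5.64, -6.35 and -3.19 in the knockout, a difference of -2.12 ± 0.97 (limma, adjusted p = 0.614). Zfp941, a zinc finger gene, differed by 1.23 ± 1.14 through knockout replicate 3 alone, which read 1.46 while the other 5 arrays lay between -3.07 and -2.58. Its other probe read -1.59 in that array and differed by 0.22 ± 0.42. LOC100036523 and Zfp941 were chosen for mention after their values were seen.

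Genes were also grouped by what they do. The list headed mitochondrial genes had 7 tested members, 3 positive and 4 negative with a median of -0.04. It holds Bet1l, a SNARE protein of the Golgi, at -0.21 ± 0.16, and Uros, a cytosolic enzyme of haem synthesis, at 0.03 ± 0.23, neither of which is mitochondrial. Bnip3, a regulator of mitophagy, had 3 probes between -0.15 ± 0.16 and 0.03 ± 0.16, Sirt3, the main mitochondrial deacetylase, differed by -0.19 ± 0.20, and Echs1, an enzyme of fatty acid oxidation, by 0.08 ± 0.20. The list of lipid and small molecule metabolism had 12 tested genes, 6 in each direction, and a median of 0.04. Within it Pnpla2, the triglyceride lipase of fat stores, differed by -0.09 ± 0.23 and Taldo1, of the pentose phosphate pathway, by 0.09 ± 0.17. Cyp2e1, a cytochrome of ethanol metabolism, varied most between arrays, at -0.92, -0.71 and -3.32 in the wild type and -2.61, -2.94 and -0.67 in the knockout.

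Among genes of Ras, cell cycle, growth factor and death signalling, 13 were tested, 7 positive and 6 negative with a median of 0.01. Hras, a small GTPase, differed by 0.02 ± 0.15, and Ccnd1, cyclin D1, by -0.09 ± 0.30. Mki67, a marker of dividing cells, read -0.44, -0.39 and 0.31 in the wild type and -1.29, 0.02 and -0.06 in the knockout, a difference of -0.27 ± 0.39. Of 12 genes of transcription, chromatin and DNA repair, 8 were positive and 4 negative with a median of 0.04, led by Ctbp2, a corepressor, at 0.24 ± 0.16. Mgmt, which repairs alkylated guanine, differed by 0.02 ± 0.24.

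The list headed membrane traffic and cytoskeleton had 13 tested genes with 7 positive and 6 negative differences and a median of 0.02, and it includes Rnh1, the ribonuclease inhibitor, which has neither role. The tetraspanins, 4 tested, had 2 in each direction, Cd81 and Cd151 at 0.07 ± 0.16 and 0.02 ± 0.17 and Tspan4 and Tspan32 at -0.44 ± 0.25 and -0.26 ± 0.15. Of the interferon-induced transmembrane cluster, 3 of 5 genes were tested. Ifitm3, which restricts the entry of viruses, read 4.42, 3.92 and 4.42 in the wild type and 3.51, 4.59 and 4.02 in the knockout. Ifitm1 and Ifitm2 also had their lowest value in knockout replicate 1 and their highest in knockout replicate 2, and the median of the 3 differences was -0.17. Proteases, mucins and matrix genes, 3 tested of 7, were all negative with a median of -0.42, and Ano1, a chloride channel, was the tested member of 3 channels and pores, at 0.26 ± 0.30. No gene of any of these 11 lists passed the test (limma), and the lists were drawn up with results of these arrays known.

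Where a name had more than 1 tested probe, the probes gave a measure of how far a single difference can be read. Of 41 such names, 27 had probes of 1 sign and 14 of both signs. The median range between the probes of a name was 0.14, beside a median size of the difference, sign disregarded, of 0.15 over the 209 members. The widest range was 1.25, for edge transcript 1.

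The sign of a difference went with the level of the probe. Among the 103 members with a mean level above 0 the differences were positive for 57 and the median was 0.02. Among the 106 at or under 0 they were positive for 22 and the median was -0.24. Of the 15 members lower in every knockout array, 13 were at or under 0, and of the 5 higher in every knockout array, 4 were above 0. The 13 are 12.3% of the members at or under 0, against 13.9% of all probes at such levels. The 4 are 3.88% of the members above 0, against 2.67% of all probes there. All probes of the array showed the same split, with medians of 0.01 above and -0.21 at or under 0. The Spearman correlation of level and difference was 0.47 over the 209 members and 0.46 over all probes, a description over probes that share 6 arrays. Wild-type replicate 1 was the highest of the 6 arrays for 51 of the 106 dim members (48.1%) and for 46.9% of all dim probes. That array had the lowest 75th percentile of signal, 638 against 740 to 928 in the others, and its part in the lower dim probes was not tested.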

How the data were processed

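Total RNA of cardiomyocytes was hybridised to 6 one-colour Agilent mouse arrays, 3 per genotype, and the labelled genotype set the groups. The deposited files hold, per the file headers, for each spot a processed intensity from Agilent Feature Extraction 10.7.3.1, background-subtracted within the array and not normalized between arrays, with its mean and background intensity and flags. The deposited value table holds intensity on a linear scale with a median of 69.7 in all 6 columns, and was used as an alternative.

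Control spots (3671 on each array) and spots with outlier flags were left out, the log2 intensity was averaged per probe, and the array's 75th percentile was subtracted. Probes well above background in at least 50% of their spots on at least 3 arrays were tested (29990), with limma 3.58.1 (R 4.3.3), Benjamini-Hochberg over all of them, and a threshold of 0.05. Distances run from the H19 probes (mm9, per the file headers). No mm9 annotation was used, so exon and intron are not given. Member names came from a RefSeq table of GRCm38.p6, used for names only (195 by accession, 25 by symbol, 12 by synonym), or from the file (113).

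In simulated data of 29990 probes, the procedure recovered 16 of 50 probes changed 2-fold, 45 of 50 changed 4-fold and all 50 changed 8-fold, with 9 false calls. Alternatives were normexp background correction (offset 50), quantile normalization, median scaling, the deposited values, other detection filters, 1 probe per gene, a block for the replicate number or for the slide, a trended robust prior, and leaving out each array. Named are members with the smallest p in each direction, those within 1 Mb of H19, part of each list, and, chosen after their values were seen, the non-overlapping intergenic and clone transcripts. The members and lists were chosen with earlier results of these data known.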

Additional observations from a re-analysis of the deposited data

How the results depend on the processing

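The count of members past the threshold was 0 under every alternative run, with the smallest adjusted p at 0.0573 without wild-type replicate 3 and 0.101 under median scaling. Members apart between the genotypes numbered 2 higher under normexp correction (0.957% of members, 1.79% of all probes), 25 higher and 3 lower under median scaling (12.0% and 1.44%, against 11.3% and 2.72%), and 31 lower with no filter on dim probes (8.99% against 9.68%). With 1 array left out they numbered 7 to 17 higher and 20 to 46 lower, where 3.82% to 7.17% and 11.9% to 23.9% of all probes did so, with fewer arrays to separate. The member median was -0.0065 after quantile normalization, 0.33 under median scaling, 0.00037 in the deposited values, -0.042 for probes detected on all 6 arrays and -0.20 with no filter; with 1 array left out it ran from -0.12 to -0.06. Over all probes, 108 passed under median scaling, 6 with detection on all 6 arrays, 4 with detection on at least 1, 4 with no filter, 8 with 1 probe per gene, 9 with slide as a block and 4 to 18 with 1 array left out (4 without any 1 of the knockout arrays, 5 without wild-type replicate 2). With the replicate number as a block 5 passed, and same-numbered arrays did not deviate together (correlations of -0.21, -0.04 and 0.03), so the numbers were not treated as pairs. Of the values for named genes under the alternatives, 610 kept their sign and 41 changed it, none of them past the threshold. Of those for distance bins, 95 moved by less than the spread between arrays and 31 by more. The signs that turned under median scaling and quantile normalization are given beside the bins. Signs turned under other alternatives too. The telomeric bin at 1 to 2 Mb, for example, had a median of 0.14 in the deposited values and 0.09 without knockout replicate 1. The 1 Mb windows give other bins, so their medians have no counterpart. Signal over background and 3 arrays per genotype limit what can be detected.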
